A study of Homo sapiens with 16 samples.

Results

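Knockdown of PNPase was compared with knockdown of SUV3 in OCI-AML2 cells on day 6, the last day sampled. OCI-AML2 is an established human acute myeloid leukaemia line. Both groups carried short hairpin RNA constructs: one group had PNPase knockdown (replicates 545 and 1717), and the other had SUV3 knockdown (replicates 1595 and 1727), each replicate being described by the submitters as biological. The series holds 16 samples, 4 on each of days 3, 4, 5 and 6, and cells with a control construct were not analysed here. Every difference below is therefore PNPase knockdown minus SUV3 knockdown and gives no change against unperturbed cells. What the replicate numbers stand for is not given, so that hairpin and culture cannot be told apart within a knockdown.

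PNPase, encoded by PNPT1, is a 3′ to 5′ exoribonuclease of mitochondria, and SUV3, encoded by SUPV3L1, is the RNA helicase that works with it. Together they form the mitochondrial degradosome, which removes faulty and antisense mitochondrial transcripts and so limits double-stranded RNA in the organelle. Double-stranded RNA that reaches the cytosol is bound by sensors such as MDA5, which signal through MAVS to interferon and NF-kappaB programmes. PNPT1 and SUPV3L1 themselves were not analysed here, so the depth of each knockdown is unknown.

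The assay counted probe barcodes for 579 immune genes and 15 housekeeping genes. Of these 594 genes, 360 were above the negative control probes on day 6, meaning that their mean over the 4 samples exceeded 12.9, the negative control mean plus 2 SD. A gene was taken as a member if both PNPase values lay above both SUV3 values, or both below, on the housekeeping-scaled log2(value + 1) scale. There were 145 members, 40.3% of the 360 genes. If the 4 samples were interchangeable, a share of 0.333 of the genes would be expected without overlap. In 45 of them, 12.5% of the genes above background, PNPase knockdown was higher, and in 100, 27.8%, it was lower. The gap between the groups chose these genes, so the day 6 differences of members are descriptions. On days 3, 4 and 5 the same rule left 40.3%, 41.4% and 29.7% of the same genes without overlap.

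The direction of many members depended on the scaling. The 15 housekeeping genes were all brighter after PNPase knockdown before scaling, by 0.13 to 0.62 on the log2 scale. Their common factor was 0.41 and 0.51 in the PNPase samples, against -0.01 and 0.10 in the SUV3 samples. Without scaling 162 genes did not overlap (45% of those above background), of which 146 were higher (40.6%) and 16 lower (4.44%) after PNPase knockdown. Scaling by the spiked positive controls left 101 genes without overlap (28.1%), 62 higher (17.2%) and 39 lower (10.8%). Scaling by the median of the genes above background left 134 (37.2%), 72 higher (20%) and 62 lower (17.2%). The share of members that were higher after PNPase knockdown was thus 31.0% with housekeeping scaling, 90.1% with none, 61.4% with the positive controls and 53.7% with the median. Without scaling the difference changed sign in 40 of the 100 lower members and in 0 of the 45 higher members. The 0 was fixed in advance, since omitting these factors raises PNPase minus SUV3 differences. It says nothing about how stable the higher members are. Without scaling, the median difference over all genes above background was 0.27, and with housekeeping scaling it was -0.14.

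**Figure D1:**
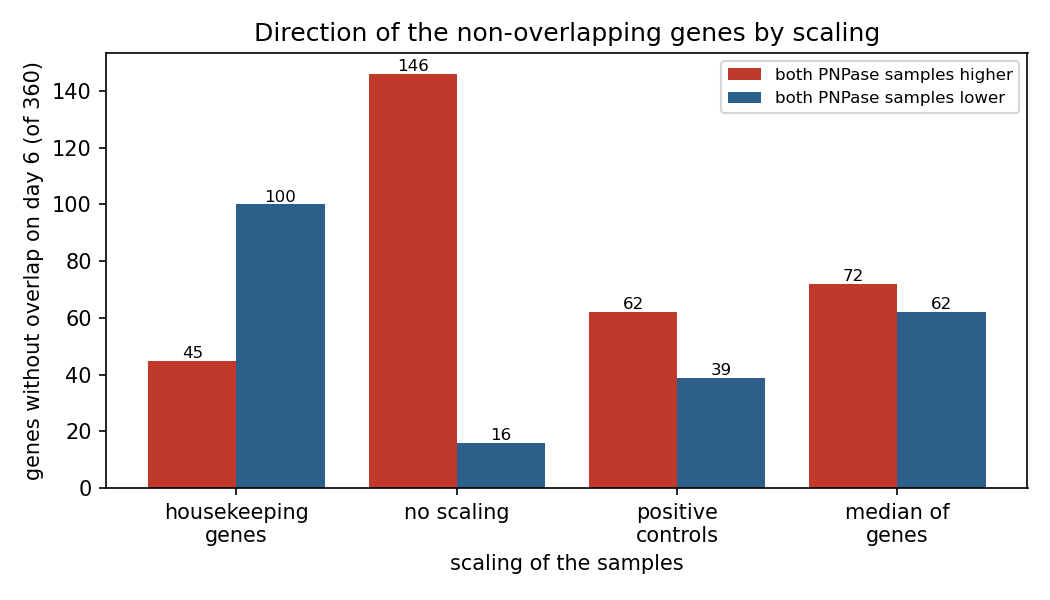
Number of the 360 genes above background whose PNPase and SUV3 values did not overlap on day 6 (vertical axis), with PNPase higher and PNPase lower as separate bars, for each scaling on the horizontal axis. The balance moves from 45 higher and 100 lower with housekeeping scaling to 146 higher and 16 lower without scaling.

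Under all 4 scalings 52 genes did not overlap in the same direction, 14.4% of the genes above background, with 36 higher (10%) and 16 lower (4.44%) after PNPase knockdown. These genes lead the account below, and a member is said to hold under all scalings only where it is one of them. Leaving out any 1 of the 4 samples cannot change the sign of these 52 differences, since the values do not overlap. It moved the size by over 1.5 times in 27 of them. The counts were 11 without PNPase replicate 545, 9 without PNPase replicate 1717, 12 without SUV3 replicate 1595 and 13 without SUV3 replicate 1727. Among the 16 lower genes the difference ranged from -2.25 to -0.56, with a median of -0.96. Among the 36 higher genes it ranged from 0.10 to 1.67, with a median of 0.40. Since the scalings move all genes of a sample together, small differences can drop out of this set by its construction. The set also tilts to the higher side. The median difference over all genes above background was -0.14 with housekeeping scaling. It was 0.27 with none, 0.015 with the positive controls and 0.030 with the median. Thus 84 lower members and 9 higher members fell out. List counts under all scalings stand against 10% higher and 4.44% lower.

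**Figure D2:**
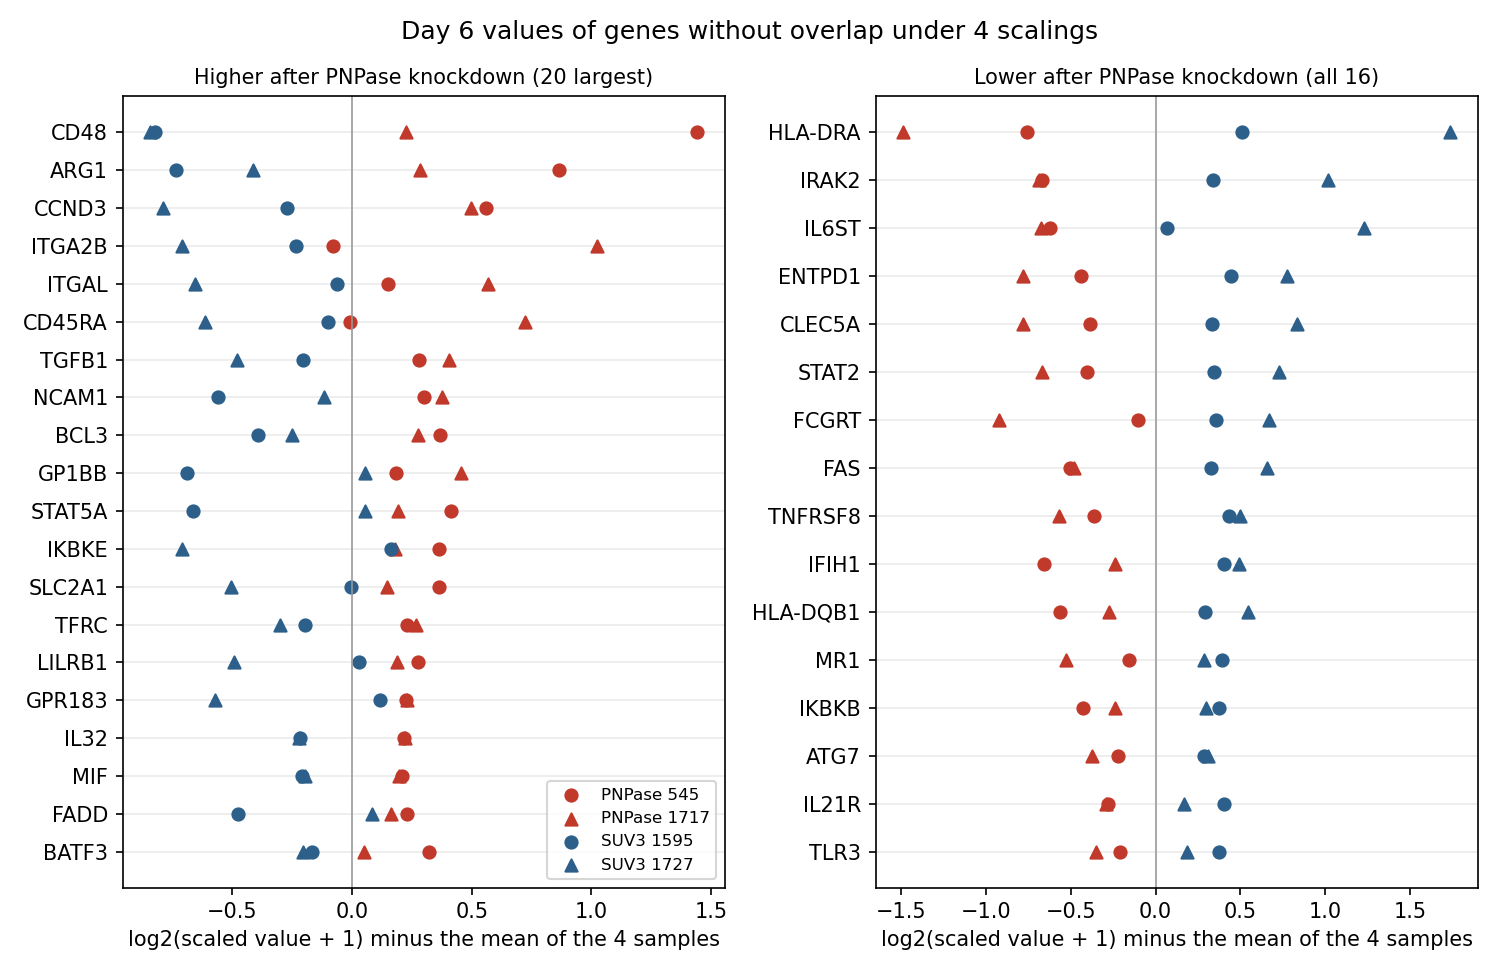
Housekeeping-scaled log2 values on day 6, centred on the mean of the 4 samples of each gene, for genes without overlap under all 4 scalings: the 20 with the largest difference among those higher after PNPase knockdown (left) and all 16 lower ones (right). Each point is 1 sample; CD48 at +1.67 and HLA-DRA at -2.25 stand at the ends.

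Antigen presentation by MHC class II held the member with the largest difference. HLA-DRA, the alpha chain of HLA-DR, had scaled log2 values of 5.32 and 4.59 in the PNPase samples, against 6.59 and 7.82 in the SUV3 samples. Its deposited values were 52 and 33 after PNPase knockdown and 95 and 241 after SUV3 knockdown. Both PNPase samples were lower, and SUV3 replicate 1727 was the highest. The difference was -2.25 ± 0.54 (log2, SE of the fit), a level 4.75-fold higher after SUV3 knockdown, and without scaling it was -1.84. In bulk RNA, fewer cells that express a gene and less of its RNA per cell cannot be told apart, here or below. HLA-DQB1, a beta chain of HLA-DQ, also kept its order under every scaling, with deposited values of 12 and 16 against 17 and 22, which lie near the negative controls. HLA-DPA1, the alpha chain of HLA-DP, had scaled values of 5.09 and 3.91 in the PNPase samples and 5.25 and 6.67 in the SUV3 samples. HLA-DRB3 had 4.31 and 3.97, against 4.59 and 5.90. For these 2 genes the order depended on the scaling, and SUV3 replicate 1595 lay close to the PNPase samples. HLA-DRB3 and HLA-DRB1 are near-identical genes, and their probes may share signal.

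Of the 10 class II genes above background, 6 were lower members and 0 were higher, against 27.8% lower among all genes above background. Their median difference was -0.68, against -0.14 for all genes, and without scaling it was -0.29 against 0.27. The peptide-loading genes HLA-DMB and HLA-DOB differed by -0.72 and -0.64, in an order that depended on the scaling, so that 2 of the 6 lower members held under all scalings. CD74, the invariant chain that occupies the class II groove before peptide loading, overlapped between the knockdowns with a difference of -0.02 ± 0.33. Leaving out SUV3 replicate 1727 gave a list median of -0.39, and leaving out SUV3 replicate 1595 one of -1.03. No gene of the list passed the adjusted test on day 6.

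MHC class I genes did not share this order. Of 7 class I presentation genes above background, 0 were lower members and 2 were higher, against 27.8% and 12.5% in the background. The 2 were the peptide transporter subunit TAP2 and the loading chaperone TAPBP, both in an order that not every scaling kept. HLA-B differed by -0.25 ± 0.51 and B2M, the common light chain, by -0.32 ± 0.37, both with overlap. HLA-C differed by -0.02. MR1, a class I-like molecule that presents microbial metabolites, was lower under all scalings at 5.93 and 5.56 in PNPase samples, against 6.48 and 6.38 in SUV3 samples. FCGRT, a class I-like receptor that recycles IgG, was lower too, at 7.06 and 6.24 against 7.51 and 7.82.

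Among the sensors of nucleic acids, the 2 receptors for double-stranded RNA in the list were lower after PNPase knockdown under all scalings. IFIH1 encodes MDA5, the cytosolic sensor of long double-stranded RNA. Its scaled values were 4.73 and 5.14 in the PNPase samples, against 5.79 and 5.88 in the SUV3 samples, with deposited values of 34 and 49 against 54 and 62. The difference was -0.90 ± 0.27, and it was -0.93, -0.49 and -0.88 on days 3, 4 and 5. TLR3, which senses double-stranded RNA in endosomes, had 4.56 and 4.42 against 5.14 and 4.95, a difference of -0.56. The kinase TBK1 and the adaptor STING (TMEM173) differed by -0.43 and -0.34, in an order that not every scaling kept. IKBKE, the kinase related to TBK1, went the other way under all scalings, at 9.21 and 9.03 in PNPase samples and 9.01 and 8.14 in SUV3 samples, a difference of 0.55, or 0.11 without SUV3 replicate 1727. Of 9 sensing genes above background, 4 were thus lower members and 1 was higher, against 27.8% and 12.5% in the background, and 2 of the 4 held under all scalings. The list median was -0.34 with all samples, 0.08 without scaling and -0.19 without SUV3 replicate 1727.

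The promoters of IFIH1, TLR3 and the interferon effector MX1 are shown, as genes named in the double-stranded RNA and interferon results. Only windows of these genes with at least 1 match to the motif below were taken. Each line gives 250 bases before to 50 after the annotated start, from RefSeq (GRCh38.p14), on the gene's strand. The windows are chr2:162318635-162318934 on the minus strand for IFIH1, chr21:41420308-41420607 on the plus strand for MX1 and chr4:186068906-186069205 on the plus strand for TLR3. Capitals mark the core of the interferon-stimulated response element, GAAA, any 2 bases and GAAA again, on either strand, and neighbouring matches may overlap.
IFIH1: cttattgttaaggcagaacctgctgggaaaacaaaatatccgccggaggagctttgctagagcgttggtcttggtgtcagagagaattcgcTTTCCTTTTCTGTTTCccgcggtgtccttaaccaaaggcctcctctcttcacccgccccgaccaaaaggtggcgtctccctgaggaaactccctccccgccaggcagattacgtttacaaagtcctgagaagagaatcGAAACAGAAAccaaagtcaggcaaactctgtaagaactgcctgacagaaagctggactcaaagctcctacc
MX1: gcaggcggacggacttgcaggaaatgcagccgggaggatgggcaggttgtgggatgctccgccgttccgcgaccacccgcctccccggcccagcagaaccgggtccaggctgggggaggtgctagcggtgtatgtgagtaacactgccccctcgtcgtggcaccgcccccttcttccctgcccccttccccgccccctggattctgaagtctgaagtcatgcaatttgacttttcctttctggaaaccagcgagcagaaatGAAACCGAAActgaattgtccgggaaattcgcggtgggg
TLR3: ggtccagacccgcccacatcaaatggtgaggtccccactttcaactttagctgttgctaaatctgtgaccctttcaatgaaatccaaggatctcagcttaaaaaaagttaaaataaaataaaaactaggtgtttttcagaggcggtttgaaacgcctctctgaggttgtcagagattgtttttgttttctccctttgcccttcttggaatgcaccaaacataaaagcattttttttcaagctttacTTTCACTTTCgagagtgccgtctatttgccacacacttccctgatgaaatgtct
IFIH1 had 3 matches, 2 of them overlapping, MX1 had 1 and TLR3 had 1. The choice of windows fixed in advance that each held at least 1. The motif was present in 3.57% of all promoter windows. Counted per gene with a window, it was present in 4.38% of all genes and in 11.1% of panel genes above background. It was present in 9 of 79 lower members with a window, 11.4%, and in 4 of 38 higher members, 10.5%, against which neither share is a result about the members. A match is a run of letters and no evidence of binding.

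The signalling arm of the interferon response was led by STAT2, a subunit of the transcription factor ISGF3. STAT2 had scaled values of 7.72 and 7.46 in the PNPase samples, against 8.47 and 8.86 in the SUV3 samples. The deposited values were 280 and 249 against 352 and 496. Its difference of -1.07 ± 0.28 was a 2.11-fold higher level after SUV3 knockdown, held its order under all scalings and was -1.19 and -1.07 on days 3 and 4. IRF7, which amplifies type I interferon, had 4.41 and 4.63 in PNPase samples against 4.91 and 5.97 in SUV3 samples, in an order that depended on the scaling. IRF3, activated downstream of MAVS, was higher after PNPase knockdown under all scalings, by 0.22, and STAT6 and STAT5A were higher by 0.10 and 0.61, STAT5A by 0.25 without SUV3 replicate 1595. Without PNPase replicate 1717 IRF3 was higher by 0.12, and without PNPase replicate 545 STAT6 by 0.041. Of 17 genes for interferon receptors, JAKs and STATs, 3 were higher members and 6 were lower, near the 12.5% and 27.8% of the background, with a median of 0.08, or 0.47 without scaling.

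The effector genes rested largely on 1 sample. MX1, a GTPase that blocks viral replication, had scaled values of 5.53 and 5.43 in the PNPase samples, against 5.68 and 7.93 in the SUV3 samples. The deposited values were 60 and 60 against 50 and 260, so SUV3 replicate 1595 lay below both PNPase values before scaling. The difference was -1.33 ± 0.80 with all samples and -0.20 without SUV3 replicate 1727. On days 3, 4 and 5 it was -2.79, -1.60 and -1.98. IFI16, an interferon-inducible DNA sensor, had 6.41 and 6.44 against 6.88 and 7.30, a difference of -0.67, or -0.25 without scaling. Of 7 effector genes above background, 0 were higher members and 2 were lower, MX1 and IFI16, neither under all scalings. Among all genes above background 12.5% were higher and 27.8% lower, so this count is no result about the effectors. The median over these 7 genes was -0.45 with all samples, -0.04 without scaling and 0.10 without SUV3 replicate 1727, so its sign turned. BST2, which tethers budding virions, overlapped at a difference of -0.81. IFNB1, the type I interferon itself, was not above the negative controls, with deposited values of 3 and 3 against 4 and 5.

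Inflammatory genes followed a mixed order. IRAK2, a kinase of Toll-like receptor and interleukin-1 signalling, had 3.86 and 3.84 in the PNPase samples, against 4.86 and 5.54 in the SUV3 samples, a difference of -1.35 ± 0.33 that held under all scalings. Its deposited values were 18 and 19 against 28 and 49, and the PNPase values lie near the negative controls. IKBKB, the kinase that releases NF-kappaB, was lower under all scalings at 7.30 and 7.50 against 8.10 and 8.03. IL6ST, the gp130 signal transducer of the interleukin-6 family, had 6.19 and 6.14 against 6.88 and 8.04, a difference of -1.30 ± 0.46, and of -0.71 without SUV3 replicate 1727. IL8, the neutrophil chemokine CXCL8, had 9.59 and 9.20 in the PNPase samples and 9.79 and 11.69 in the SUV3 samples. Its difference was -1.34 with all samples and -0.40 without SUV3 replicate 1727, and its order depended on the scaling. Of 6 chemokines above background 2 were lower members, IL8 and CXCL2, against 27.8% in the background. Neither held under all scalings, and the list median of -0.49 became 0.10 without SUV3 replicate 1727. Of 13 genes for Toll-like receptors and their adaptors 6 were lower members and 0 higher, and of 24 NF-kappaB genes 9 were lower and 3 higher, against 27.8% lower and 12.5% higher in the background. Under all scalings 1 lower member was left in each of these lists, and 2 higher ones among the NF-kappaB genes. The list medians of -0.14 and -0.19 became 0.27 and 0.22 without scaling, so their sign turned.

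BCL3, an atypical IκB protein, was higher after PNPase knockdown under all scalings, at 4.77 and 4.67 against 4.01 and 4.15. Of 12 cytokines above background 3 were higher and 3 lower members, against 12.5% and 27.8% in the background. Under all scalings 3 were higher and 0 lower, against 10% and 4.44%. TGFB1, an immunosuppressive cytokine, had 9.23 and 9.35 in the PNPase samples, against 8.74 and 8.46 in the SUV3 samples, a difference of 0.69, and of 1.10 without scaling. IL32, a proinflammatory cytokine, was bright, with deposited values of 50105 and 53862 against 27744 and 29790. On the scaled log2 scale it had 15.20 in both PNPase samples, against 14.77 and 14.76 in the SUV3 samples. MIF, a macrophage cytokine, was as tight, at 11.95 and 11.94 against 11.53 and 11.54. TNFSF13B, the B cell survival factor BAFF, was lower at 9.31 and 8.80 against 9.67 and 10.44, in an order that depended on the scaling.

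Genes of growth and nutrient supply held several of the higher members. CCND3, the cyclin D3 that drives entry into S phase, had scaled values of 11.30 and 11.24 in the PNPase samples, against 10.47 and 9.96 in the SUV3 samples. The deposited values were 3366 and 3452 against 1414 and 1065. Both PNPase samples were higher with little spread between them, the difference was 1.06 ± 0.29, or 2.08-fold, and it was 1.37, 1.28 and 1.19 on days 3, 4 and 5. TFRC, the transferrin receptor for iron uptake, had 11.66 and 11.69 against 11.23 and 11.13. SLC2A1, the glucose transporter GLUT1, had 6.02 and 5.80 against 5.65 and 5.15. Of 15 metabolism and proliferation genes above background, 6 were higher members and 4 lower, against 12.5% and 27.8% in the background. Under all scalings 5 and 1 held, against 10% and 4.44%. The list had a median of 0.13, or 0.55 without scaling.

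Surface molecules of leukocytes supplied several other higher members. CD48, a GPI-anchored ligand of the receptor 2B4, had scaled values of 6.36 and 5.14 in the PNPase samples, against 4.09 and 4.07 in the SUV3 samples. The deposited values were 108 and 49 against 16 and 17, and the SUV3 values lie near the negative controls. The difference was 1.67 ± 0.48, 3.18-fold, and was 1.59, 1.27 and 1.88 on days 3, 4 and 5. It was 1.06 without PNPase replicate 545. ITGAL, the alpha chain of the integrin LFA-1, had 11.40 and 11.82 against 11.18 and 10.59, and NCAM1 (CD56) had 8.75 and 8.83 against 7.90 and 8.34. ARG1, the arginine-degrading arginase, had 6.31 and 5.72 against 4.71 and 5.03, a difference of 1.15 ± 0.32. LILRB1 and LILRB4, inhibitory receptors of myeloid cells, were higher by 0.47 and 0.36 and held under all scalings, with 0.21 for LILRB1 without SUV3 replicate 1727 and 0.23 for LILRB4 without PNPase replicate 545. CD44, the hyaluronan receptor, had 10.57 and 11.29 against 10.53 and 9.71, without overlap under housekeeping scaling but not under all 4. GP1BB, a subunit of the platelet receptor for von Willebrand factor, had 6.69 and 6.96 against 5.81 and 6.56. NOTCH1, a receptor of cell fate decisions, had 6.93 and 7.16 against 6.51 and 6.86, and GPR183, an oxysterol receptor, had 5.40 in both PNPase samples against 5.29 and 4.60.

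Apart from CD45RA, FADD and ITGA2B, described below, the higher genes under all scalings not named so far had differences of at most 0.37. They include the transcription factors BATF3 and BCL6, the cytokine receptor chains IL12RB1 and IL4R, the phosphatase PTPN6 (SHP-1), the inflammasome adaptor PYCARD and the proteasome subunit PSMB10. BATF3 had 8.87 and 8.60 in the PNPase samples, against 8.39 and 8.35 in the SUV3 samples. PYCARD had 7.71 and 7.78 against 7.53 and 7.47. PSMB10 had 10.30 and 10.20 against 9.84 and 10.19, a narrow separation. Among the lower genes under all scalings, ENTPD1, the ectonucleotidase CD39, had deposited values of 11 and 9 against 16 and 22. TNFRSF8, the receptor CD30, had 11 and 10 against 15 and 17, and IL21R, the interleukin-21 receptor, had 17 and 18 against 21 and 19. These 3 genes lie at or just above the negative controls. ENTPD1 and TNFRSF8 counted as above background only through their SUV3 values, since both PNPase values lay below 12.9.

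Among myeloid receptors CLEC5A, a C-type lectin that signals through DAP12, was lower after PNPase knockdown under all scalings. Its scaled values were 8.41 and 8.02 in the PNPase samples, against 9.13 and 9.63 in the SUV3 samples, with deposited values of 451 and 368 against 557 and 849. The difference of -1.17 ± 0.32 was -1.23, -1.35 and -1.23 on days 3, 4 and 5. CLEC4E, the lectin Mincle, and FCGR3A/B, a probe for 2 near-identical IgG receptor genes, were lower by 1.04 or more in an order that depended on the scaling. The FCGR3A/B values were 10 and 7 against 8 and 28, and all but the 28 of SUV3 replicate 1727 lie at the negative controls. FCGR3A/B counted as above background only through that sample, and without it the difference was -0.35. CXCR4, the receptor that holds blasts in the marrow, had 10.20 and 10.46 against 10.93 and 11.31, again in an order that depended on the scaling, with a difference of -0.79, or -0.38 without scaling. The differentiation markers of the fixed set overlapped. CD14 differed by -0.09 ± 0.68, ITGAM by 0.02 ± 0.67 and CSF3R, the receptor for G-CSF, by -0.43. S100A8, a calcium-binding protein of maturing myeloid cells, had 11.98 and 10.83 in the PNPase samples and 10.79 and 13.52 in the SUV3 samples, so both SUV3 values lay outside the PNPase range, on opposite sides. S100A9 differed by -0.64 ± 1.10. Of 28 myeloid markers above background, 2 were higher and 5 lower members, against 12.5% and 27.8% in the background.

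Myeloid markers were detected most often, B cell markers nearly as often, and T and NK cell markers seldom. Of 45 myeloid markers measured 28 were above background, against 6 of 46 T and NK cell markers and 9 of 17 B cell markers. The T cell genes CD3D and CD3E were not above it. The 6 detected T and NK markers were CD4, PRF1, KLRF1, KLRAP1, NCAM1 and CD96. Their summed scaled level was 703 to 754 in the PNPase samples and 547 to 773 in the SUV3 samples, and that of the myeloid markers was 5132 to 7004 and 5683 to 9746. The sums of the 9 B cell markers were 5007 to 5437 in the PNPase samples and 4614 to 5811 in the SUV3 samples, so all 3 sums overlapped. CD34, a progenitor marker, was not above background, with deposited values of 6 and 8 against 5 and 4.

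Probes for the splice forms of CD45, the leukocyte phosphatase PTPRC, gave a comparison within each sample that no scaling touches; it was chosen after the values were seen. The ratio of the CD45RB value to the CD45R0 value was 1.80 and 2.14 in the PNPase samples, against 1.32 and 0.724 in the SUV3 samples on day 6. The CD45RA level itself was higher by 0.71 under housekeeping scaling and held under all scalings, with 0.35 without PNPase replicate 1717. The ratio of CD45RA to CD45R0 was 0.107 and 0.259, against 0.0951 and 0.0392. The PNPase values were above the SUV3 values on day 6 for both ratios. On day 3 the CD45RB ratio was 1.56 and 2.03 against 1.89 and 0.836. Both ratios overlapped between the knockdowns on days 3, 4 and 5, but for the CD45RB ratio the overlap on day 5 was very narrow. On that day it was 1.319 and 1.832 in the PNPase samples, against 1.32 and 0.655 in the SUV3 samples. The probe for all PTPRC forms overlapped on day 6, at 11.89 and 11.61 against 11.91 and 11.86.

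Death receptors and survival genes gave few members that held under all scalings. FAS, the death receptor CD95, was lower after PNPase knockdown at 4.13 and 4.16, against 4.96 and 5.29 in the SUV3 samples, a difference of -0.98 ± 0.26. FADD, the adaptor of FAS, was higher by 0.39, and by 0.11 without SUV3 replicate 1595. MCL1, an anti-apoptotic protein of the BCL2 family, differed by -0.27, and by 0.15 without scaling. CDKN1A, the cell cycle inhibitor p21, overlapped at -0.14. Of 18 apoptosis and damage genes 2 were higher members and 6 lower, near the 12.5% and 27.8% of the background. ATG7, an enzyme of autophagosome formation, was lower under all scalings at 9.03 and 8.87 against 9.53 and 9.55, and 3 of 5 autophagy genes were lower members, against 27.8% in the background. ATG7 was the 1 of these that held under all scalings, and the list median was -0.33, or 0.08 without scaling.

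**Figure D3:**
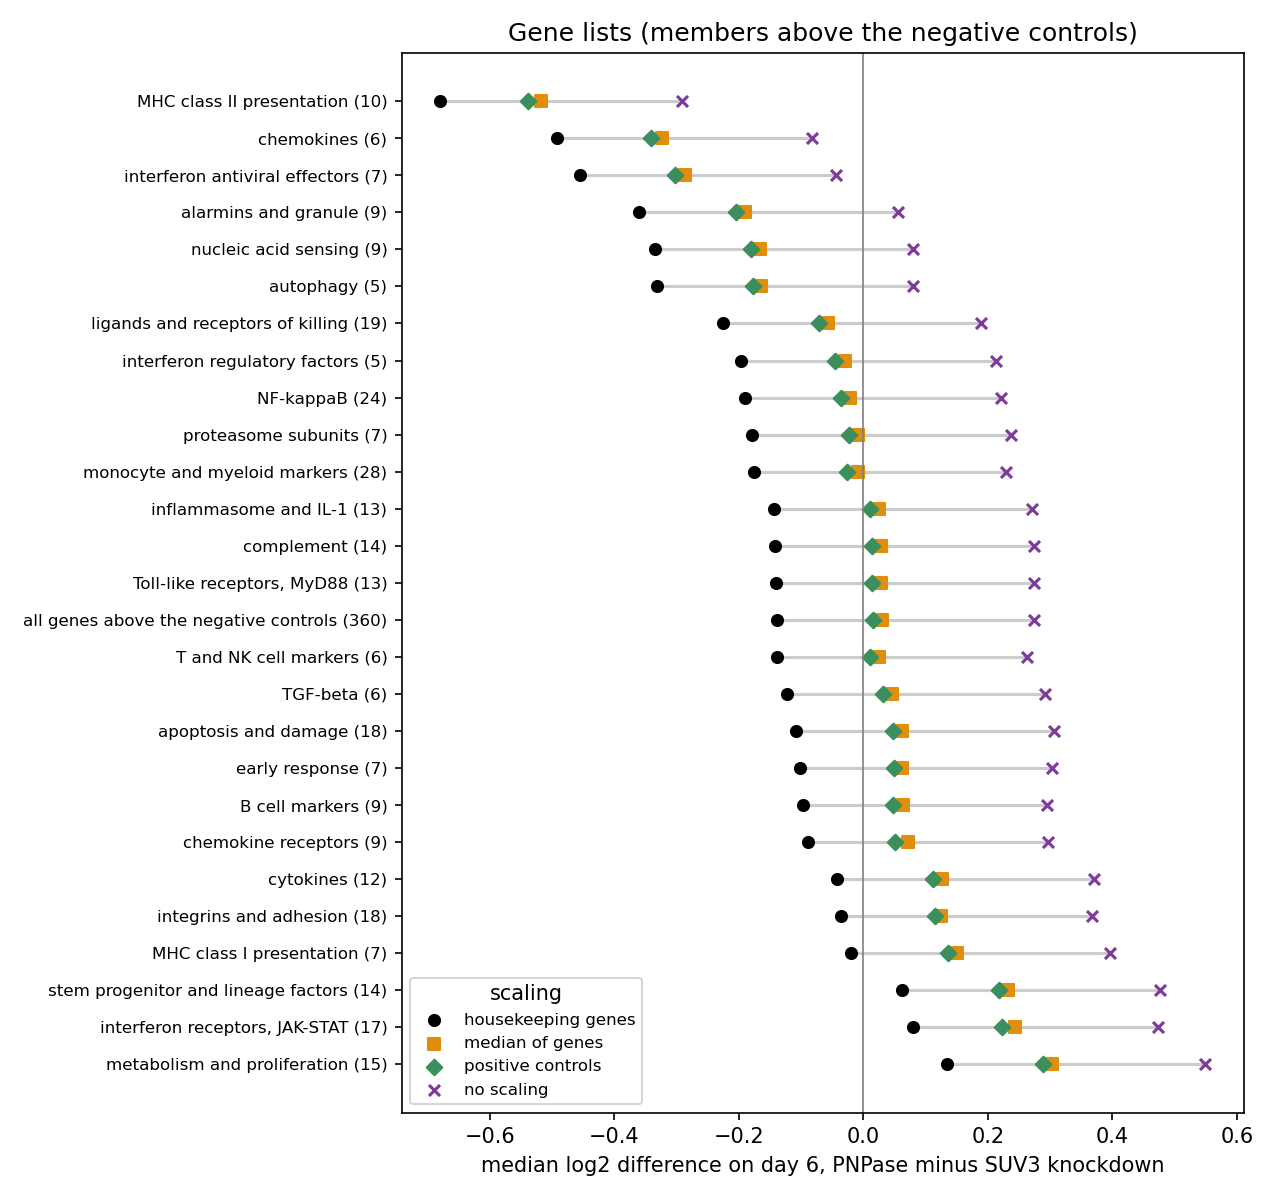
Median PNPase minus SUV3 difference on day 6 (log2, horizontal axis) over the genes above background of each list, with 1 symbol for each of the 4 scalings. The class II median is -0.68 with housekeeping scaling and -0.29 without, and most list medians cross 0 between these scalings.

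Genes on both sides of the overlap limit differed little. The closest member was ATM at a gap of 0.005, and the nearest genes outside were C1QBP, which overlapped by 0.0098, and CD55, by 0.020. Of the 100 lower members 29 had a gap under 0.1 and 12 had one over 0.5, and of the 45 higher members 22 and 4 did. SUV3 replicates differed from each other more than PNPase replicates did: the median absolute difference between replicates was 0.24 for PNPase and 0.45 for SUV3, and 19 against 75 genes differed by more than 1. The median absolute difference between the knockdown means was 0.28, and 19 genes exceeded 1. Means of 2 samples vary less than single samples, so this value and the replicate differences are not like measures. SUV3 replicate 1727 was the higher of the SUV3 pair in 68 of the 100 lower members. This is not particular to them. Over all genes above background the median of replicate 1595 minus replicate 1727 was -0.25. Replicate 1727 was higher by more than 1 in 64 of these genes, and replicate 1595 in 11.

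The limma test over all 594 genes called 0 genes at an adjusted p under 0.05 on day 6, where the smallest adjusted p was 0.599, and 39 genes, 6.57%, had an unadjusted p under 0.05. Of these 5 were higher (0.842%) and 34 lower (5.72%) after PNPase knockdown. With 2 samples against 2, an exact two-sided permutation test cannot go below 0.333.

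The members' order was also followed back through the earlier days. Of the 100 lower members 55, 61 and 56 did not overlap on the same side on days 3, 4 and 5, against 28.3%, 24.7% and 21.9% of all genes above background, and 35 did so on all 3 days, against 10.6%. Of the 45 higher members 20, 30 and 17 did so, against 11.9%, 16.7% and 7.78%, and 10 on all 3 days, against 3.06%. Of the 16 lower genes under all scalings, 9 were lower without overlap on all 3 days. The same cultures were sampled on each day, so the earlier days are no independent replicates of day 6.

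**Figure D4:**
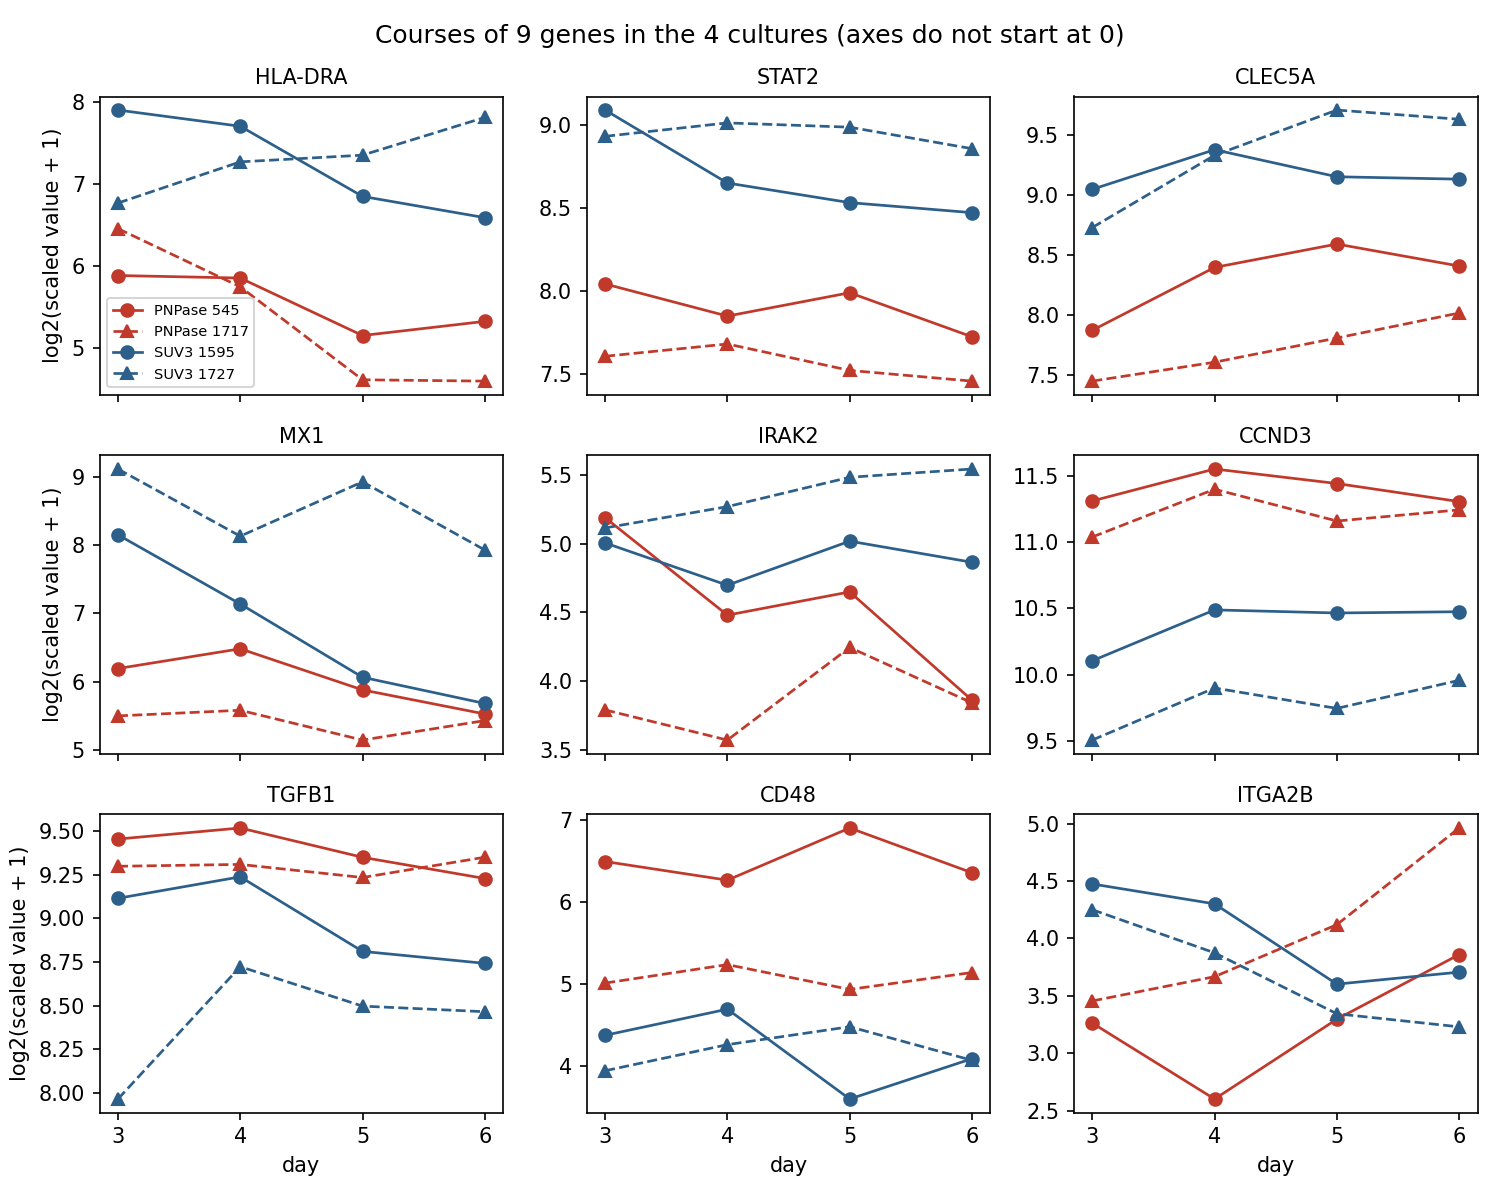
Housekeeping-scaled log2 level (vertical axis) on days 3 to 6 (horizontal axis) in the 2 PNPase and 2 SUV3 cultures for 9 genes. STAT2, CLEC5A and CCND3 keep the cultures apart on each day, MX1 is highest in SUV3 replicate 1727 on each day, and ITGA2B has opposite orders on day 3 and day 6.

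The difference on day 6 was also set against that of the earlier days, in 1 model over all 16 samples with a term for each culture. Neither contrast called a gene at an adjusted p under 0.05. Against the mean of days 3 to 5 the smallest adjusted p was 0.227 with 26 genes, 4.38%, at an unadjusted p under 0.05, and against day 3 it was 0.083 with 39 genes, 6.57%. Both of these smallest p-values belonged to ITGA2B, the integrin alpha chain of platelets and megakaryocytes. Its difference was -0.95 and 0.24 on days 4 and 5 and 0.94 on day 6, where the deposited values were 18 and 43 in the PNPase samples, against 12 and 9 in the SUV3 samples. The day 6 difference exceeded that of day 3 by 1.94 ± 0.32, at levels close to the negative controls, and the day 6 difference was 0.39 without PNPase replicate 1717. JAK3, a kinase of the common gamma chain receptors, differed from day 3 by 0.96 in the same direction, and FCGR3A/B by -1.26 in the other. The differences of IRF7 and NFKB1 were less negative on day 6 than on day 3, by 0.98 and 0.64, both without passing the adjusted test.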

How the data were processed

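Per the labels' protocols, 16 OCI-AML2 samples were assayed with a NanoString panel of immune genes. The deposited values are a score in whole numbers: only the name of the table says that the authors removed unwanted variation, with no method stated. The values behave as unscaled counts, and the 594 genes were identical in both deposited tables. Totals on day 6 were 487380 and 493370 for PNPase and 351873 and 436459 for SUV3, and weak genes are limited by the negative controls (mean 6.80, SD 3.05).

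Values were scaled to the 15 housekeeping genes (geometric mean per sample) and log2(value + 1) was taken, which understates differences of weak genes. Tests used limma 3.58.1 in R 4.3.3 with Benjamini-Hochberg adjustment over 594 genes, threshold 0.05, and were tested on simulated data. The day 6 fit used the 4 day 6 samples. The contrasts with earlier days used 16 samples with the culture as a replicate block, since the design text has each replicate sampled on each day. As a check, the correlation of same-numbered samples' deviations between days was 0.44 to 0.87 in PNPase cultures and 0.58 to 0.89 in SUV3 cultures. The labels do not say how separate the replicates were beyond calling them biological, so p-values measure the spread between these samples.

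Named genes were the 12 members with the largest difference each way, up to 4 more per list of 26 lists, up to 5 a side with the smallest p in each contrast, and a fixed set including MX1, HLA-DRA and CD14. TNFRSF10B, in that set, was not measured here. Genes outside this rule, such as BST2, MIF, MR1, STAT6 and the CD45 probes, were picked with their values known. Some genes of the panel are not reported here. The members and lists were chosen with earlier results of these data known. Alternatives were other scalings, pseudocounts, filters, blocks and leaving out each replicate.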

Additional observations from a re-analysis of the deposited data

How the results depend on the processing

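On day 6 the count of genes passing the adjusted limma test was 0 under every alternative run, with 9 to 144 genes at an unadjusted p under 0.05, and so it was for the contrast with days 3 to 5, also with no replicate block. For the contrast with day 3 the count was 0 with the replicate block, 0 with no replicate block, 3 after subtracting the negative controls (C6, IL17A and IL2), 1 when only genes above the negative controls were tested (ITGA2B), and 0 to 1 when 1 replicate was left out, where the call was IL1A without SUV3 replicate 1727. The ITGA2B call was marginal, at an adjusted p of 0.04996 in the limma test. The filter uses day 6 means, which this contrast also tests. ITGA2B passed it only through its PNPase samples, since both SUV3 values on day 6 lay below the level. The cause of these changes in the count was not tested, except that the filter left fewer genes tested. The number of genes without overlap on day 6 ranged from 101 to 162 over the scalings and filters. Leaving out a replicate was not run for that count, since 1 value against 2 overlaps less often by construction.

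Of the 110 named genes, 24 changed the sign of their day 6 difference without scaling, 4 with median scaling, 4 with positive control scaling and 8 without SUV3 replicate 1727. Of the 26 list medians, 20 changed sign without scaling and 13 without SUV3 replicate 1727. Scaling by the 10 housekeeping genes that overlap on day 6, chosen after seeing the data, gave 40 higher and 107 lower genes. Of the members, 11 had at least 1 day 6 value at or below 12.9, where the negative controls limit what the difference shows.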
